A study of Drosophila melanogaster with 12 samples.

Results

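Fatty acid oxidation genes encode the enzymes that carry fatty acids into the mitochondrion or the peroxisome and shorten them there to acetyl-CoA. The set was fixed by name at 7 genes, and its members were the probe sets of the arrays that carry 1 of these symbols alone. Of the 7 genes, 5 were found, with 6 probe sets among the 18769 that were no controls. They were whd, Mtpbeta and yip2 of the mitochondrion and Acox57D-p and Acox57D-d of the peroxisome. Mtpalpha and Mcad are not analysed here. All 5 genes had a probe set among the 11262 bright enough to test, which named 9495 genes. The second probe set of whd lay at background on all 12 arrays and was not tested.

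In the mitochondrion, long-chain fatty acids enter as carnitine esters and pass through repeated rounds of dehydrogenation, hydration, a second dehydrogenation and thiolysis. Their electrons go to the respiratory chain. The peroxisome runs the same kind of cycle, but its first enzyme, an acyl-CoA oxidase, passes electrons to oxygen and makes hydrogen peroxide. In the fly, the fat body, muscle and oenocytes are known for handling stored fat.

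The study asked how dietary restriction changes the ribosome load of mRNAs. All groups were adult males of the white-eyed laboratory strain w1118, moved at 1 to 2 days of age to the test food and kept on it for 6 days. The food held 0.25% or 4% yeast extract (YE), the diet's protein source, and 0.25% YE was the restricted diet. About 100 whole flies were pooled per extract, and mRNA with 5 or more ribosomes (high fraction) was parted from mRNA with 1 to 4 (low fraction) on a sucrose gradient. The groups were the high and the low fraction on 0.25% YE and the high and the low fraction on 4% YE, each with 3 biological replicates, for 12 arrays in all. Whole-fly extracts mix all tissues, so fewer cells of a type and less RNA per cell cannot be told apart.

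Values are normalized array intensities, given in the order of replicates 1, 2 and 3. High minus low fraction, in log2 intensity, is called the translational index. Since every array was brought to the same distribution, the index ranks mRNAs against each other. Each difference is given with its standard error (SE), and a call is an adjusted p under 0.05 from limma, two-sided, over all 11262 probe sets. Replicate 1 stood apart: log2 intensities of replicates 2 and 3 of a group correlated at 0.979 to 0.988, while replicate 1 correlated with either at 0.859 to 0.943. Results that turn on replicate 1 are therefore also given without its 4 arrays. As in males, 5 of 5 accessory gland markers lay above background on all 12 arrays, whereas the 5 female markers (yolk proteins and eggshell) were dim. Of these Yp1 and Cp36 lay above background on 0 arrays, Vm26Aa on 2, Yp2 on 4 and Yp3 on 9, and their summed intensity was 33.0 to 126 over all arrays.

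Of the 5 mRNAs, 4 lay toward the high fraction on both diets, and whd did not. The median index of the 5 genes was 0.72 on 0.25% YE and 1.09 on 4% YE, against medians of 0.02 and 0.02 over all probe sets tested. On 0.25% YE, 3 members were called higher in the high fraction, 0 lower and 2 were not called, where 21.4% of all probe sets were called, 9.66% higher and 11.8% lower. On 4% YE, 4 were called higher, 0 lower and 1 was not called, where 34.2% of all probe sets were called, 16.3% higher and 17.9% lower. The arrays of both fractions did not overlap for 4 of the 5 members on either diet. Of all probe sets tested, 33.3% did so on 0.25% YE (16% with the high fraction brighter) and 54.7% on 4% YE (27.2%).

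**Figure D1:**
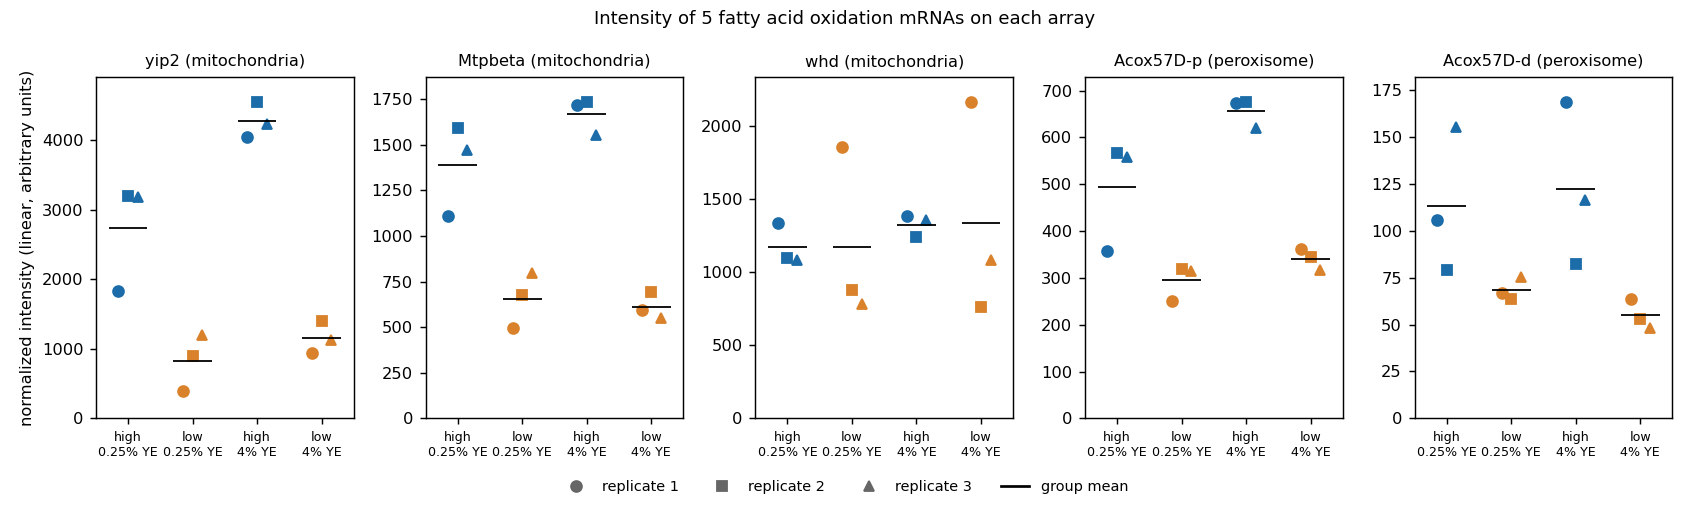
Normalized intensity (linear, arbitrary units, vertical axes from 0 with a scale of their own per gene) of 5 fatty acid oxidation mRNAs on each of 12 arrays, by fraction and diet. Symbols give the replicate number and lines the mean of 3 arrays. High-fraction arrays (blue) lie above low-fraction arrays (orange) of the same diet for 4 genes, while for whd the replicate 1 arrays of the low fraction are the brightest of all.

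The entry step is that of whd, the fly carnitine palmitoyltransferase of the outer mitochondrial membrane, which makes the carnitine esters. On 0.25% YE its mRNA measured 1335, 1099 and 1085 in the high fraction, against 1862, 879 and 783 in the low fraction. The replicate 1 array of the low fraction was the highest and the other two were the lowest, so the groups overlapped. On 4% YE the pattern was the same, with 1385, 1240.1 and 1357 in the high fraction against 2165, 762 and 1087 in the low fraction. The index was 0.10 ± 0.37 on 0.25% YE (adjusted p = 0.86) and 0.13 ± 0.37 on 4% YE (adjusted p = 0.82), with 95% intervals from -0.70 to 0.91 and from -0.68 to 0.93. By number, replicate 1 gave an index of -0.48 on 0.25% YE and -0.64 on 4% YE. Replicates 2 and 3 gave 0.32 and 0.47 on 0.25% YE and 0.70 and 0.32 on 4% YE.

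Without the replicate 1 arrays whd was called on both diets. Its index was then 0.41 on 0.25% YE (adjusted p = 0.046) and 0.52 on 4% YE (adjusted p = 0.014). In that fit 57.7% of all probe sets were called on 0.25% YE and 61.9% on 4% YE, so most probe sets were called there. Over all alternatives run the adjusted p of whd reached from 0.046 to 0.99 on 0.25% YE and from 0.014 to 0.95 on 4% YE. The index of whd was the smallest of the 5 members on both diets there. The second whd probe set measured between -10.6 and 8.66 on the 12 arrays, not well above background on any of them, and gave no check of the first.

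Mtpbeta encodes the thiolase-bearing subunit of the trifunctional protein, which carries out the later steps on long chains. On 0.25% YE it measured 1111, 1592 and 1471 in the high fraction, against 494, 677 and 794 in the low fraction. The 4% YE flies gave 1718, 1732 and 1552 in the high fraction, against 592, 694 and 549 in the low fraction. Every high-fraction array thus lay above every low-fraction array on both diets. The index was 1.10 ± 0.22 on 0.25% YE (adjusted p = 0.0062) and 1.45 ± 0.22 on 4% YE (adjusted p = 0.0006), folds of 2.14 and 2.73. Among all probe sets tested these indices stood at percentiles 92.9 and 96.1.

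The strongest skew among the members was that of yip2, a mitochondrial thiolase that splits acetyl-CoA from the shortened chain. Restricted flies gave 1837, 3197 and 3192 in the high fraction and 389, 896 and 1199 in the low fraction. Flies on 4% YE gave 4047, 4548 and 4230.0 in the high fraction and 937, 1400.5 and 1132 in the low fraction. The fractions did not overlap on either diet, and replicate 1 was the lowest array in each of the 4 groups. The index was 1.83 ± 0.36 on 0.25% YE (adjusted p = 0.0059) and 1.90 ± 0.36 on 4% YE (adjusted p = 0.0019), folds of 3.55 and 3.74. These indices stood at percentiles 99.0 and 98.9 of all probe sets. A gradient here means a diet with a replicate number. The labels do not say that its high and low arrays came from the same extract. In all 6 gradients so taken, the index of yip2 exceeded that of each of the other 4 members.

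Acox57D-p and Acox57D-d encode peroxisomal acyl-CoA oxidases, which start the peroxisomal cycle. They lie side by side on chromosome arm 2R, with 0 other genes centred between them in the Release 6 gene table. On 0.25% YE, Acox57D-p measured 357, 568 and 559 in the high fraction, against 250.3, 319 and 315 in the low fraction. Fed 4% YE, flies gave 674, 675 and 621 in the high fraction, against 362, 345 and 316 in the low fraction. No high-fraction array fell to the low-fraction level of its diet. The index was 0.72 ± 0.22 on 0.25% YE (adjusted p = 0.037) and 0.94 ± 0.22 on 4% YE (adjusted p = 0.0065), at percentiles 84.0 and 86.7.

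The call of Acox57D-p on 0.25% YE was near the threshold. It was lost without high-fraction 0.25% YE replicate 2 (adjusted p = 0.15) or 3 (0.13) and without low-fraction 0.25% YE replicate 1 (0.078) or 2 (0.072). It was also lost without replicate 2 or 3 of either fraction on 4% YE (0.054 to 0.056). The index itself stayed between 0.61 and 0.95 when single arrays were left out, and 6 of 6 gradients had it above 0.

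Acox57D-d was the dimmest member and its spread was wide. On 0.25% YE it measured 106, 79.0 and 156 in the high fraction, against 66.9, 63.7 and 75.5 in the low fraction. The 4% YE arrays read 169, 82.3 and 117 in the high fraction, against 63.7, 53.0 and 48.3 in the low fraction. The fractions did not overlap on either diet, though replicate 2 of the high fraction came close on both. The index of 1.09 ± 0.29 on 4% YE was called (adjusted p = 0.013). That of 0.66 ± 0.29 on 0.25% YE was not called (adjusted p = 0.12, 95% interval 0.03 to 1.30). Leaving out replicate 1 of the high fraction (adjusted p = 0.052) or 3 of the low fraction (0.053) on 4% YE ended the call on that diet.

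**Figure D2:**
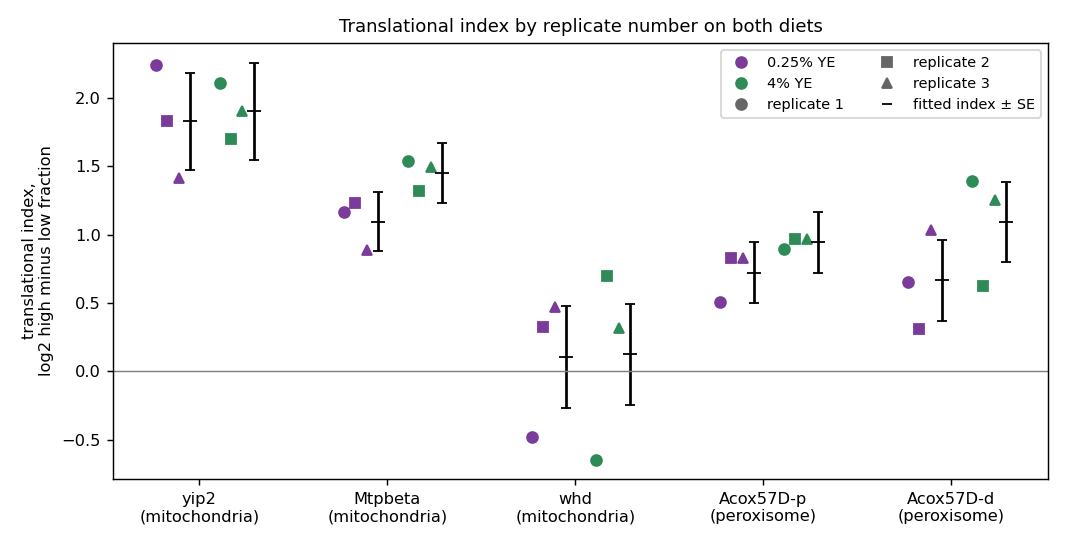
Translational index (log2 high minus low fraction, vertical axis) of the 5 genes by diet, with 1 symbol per replicate number and, beside the symbols, the fitted index with its SE. The indices of yip2 lie between 1.41 and 2.24 in all 6 gradients, and those of whd are below 0 in replicate 1 on both diets and above 0 in replicates 2 and 3.

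The 2 peroxisomal and the 3 mitochondrial members were set side by side by the mean of their indices. On 0.25% YE the means were 0.69 (peroxisomal) and 1.01 (mitochondrial), and on 4% YE 1.02 and 1.16. Peroxisomal minus mitochondrial was -0.39, -0.56 and 0.01 in the 3 gradients on 0.25% YE, a mean of -0.32 ± 0.29 (SD, n = 3). On 4% YE it was 0.14, -0.44 and -0.13, a mean of -0.14 ± 0.29 (SD, n = 3). The difference had no one sign across gradients on either diet. On 0.25% YE the peroxisomal indices were 0.66 and 0.72, within the span of the mitochondrial ones, from 0.10 (whd) to 1.83 (yip2). For the diet difference, peroxisomal minus mitochondrial was 0.35, 0.23 and 0.27 by replicate number in the low fraction, a mean of 0.28 ± 0.06 (SD, n = 3), above 0 in 3 of 3. In the high fraction it was -0.18, 0.11 and 0.40 (0.11 ± 0.29), and averaged over fractions 0.08, 0.17 and 0.33 (0.20 ± 0.13), above 0 in 3 of 3. The SDs are over replicate numbers and do not show the spread over genes. In the low fraction Acox57D-p was at -0.22 and Acox57D-d at 0.32, against -0.61 (yip2), -0.16 (whd) and 0.08 (Mtpbeta). In the average they were at -0.33 and 0.11, against -0.65, -0.17 and -0.10. Acox57D-p thus lay below whd and Mtpbeta in both. These differences between compartments were not tested. The index of Mtpbeta exceeded that of Acox57D-p in 6 of 6 gradients and that of Acox57D-d in 5 of 6. The index of whd lay below that of Acox57D-p in 6 of 6 gradients and below that of Acox57D-d in 4 of 6.

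The index on 0.25% YE minus that on 4% YE was below 0 for all 5 members and called for 0 of them. In this contrast limma called 1 probe set of 11262 (0.00888%), and 484 had an unadjusted p under 0.05. The change was -0.08 ± 0.50 for yip2, -0.35 ± 0.31 for Mtpbeta and -0.02 ± 0.52 for whd. For the oxidases it was -0.22 ± 0.31 (Acox57D-p) and -0.43 ± 0.41 (Acox57D-d), and all 5 adjusted p values were 1. Without the replicate 1 arrays 0 members were called as well, and 18 probe sets (0.16%) were. The 95% intervals reached from -1.17 to 1.02 for yip2 and from -0.90 to 0.46 for Acox57D-p. With 3 arrays per group, changes of either sign within these intervals remain compatible with the data. By number, the change was below 0 in 3 of 3 replicates for Mtpbeta, Acox57D-p and Acox57D-d and in 1 of 3 for yip2 and whd. The sign for yip2 and for whd was turned by some alternatives and by leaving out single arrays, and that for Acox57D-p went to 0.0003 without high-fraction 0.25% YE replicate 1.

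Levels on 0.25% YE were next compared with those on 4% YE within each fraction, and 0 of the 5 members were called in either. In the high fraction 1.76% of all probe sets were called and in the low fraction 0.968%. The high-fraction difference was -0.68 ± 0.36 for yip2 (adjusted p = 0.45), -0.44 ± 0.22 for Acox57D-p (0.42), -0.28 ± 0.22 for Mtpbeta (0.67), -0.18 ± 0.37 for whd (0.91) and -0.10 ± 0.29 for Acox57D-d (0.94). For yip2 and Acox57D-p each high-fraction array on 0.25% YE was dimmer than each on 4% YE, and the other 3 members overlapped. Over all probe sets the high-fraction arrays of both diets did not overlap in 23.4% of cases, in 11.6% with 0.25% YE the dimmer. In the low fraction 0 of 5 members had arrays that did not overlap (16.8% of all probe sets), and differences ran from -0.61 ± 0.36 (yip2) to 0.32 ± 0.29 (Acox57D-d).

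Averaged over both fractions, the diet difference was called for 0 of the 5 members, where 4.13% of all probe sets were called. It was -0.65 ± 0.25 for yip2 (adjusted p = 0.22, 95% interval -1.19 to -0.10) and -0.33 ± 0.16 for Acox57D-p (0.34). For whd it was -0.17 ± 0.26 (0.82), for Mtpbeta -0.10 ± 0.15 (0.83) and for Acox57D-d 0.11 ± 0.21 (0.87). In the fit blocked by replicate number the yip2 difference was called (-0.65 ± 0.18, adjusted p = 0.048, where 7.82% of all probe sets were called). It was also called without the replicate 1 arrays, at -0.37 (adjusted p = 0.022, with 22.3% of all probe sets called), as was its high-fraction difference of -0.45 (adjusted p = 0.042, with 22.3% called). By number, the averaged yip2 difference was -1.20, -0.58 and -0.16, below 0 in 3 of 3 replicates.

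**Figure D3:**
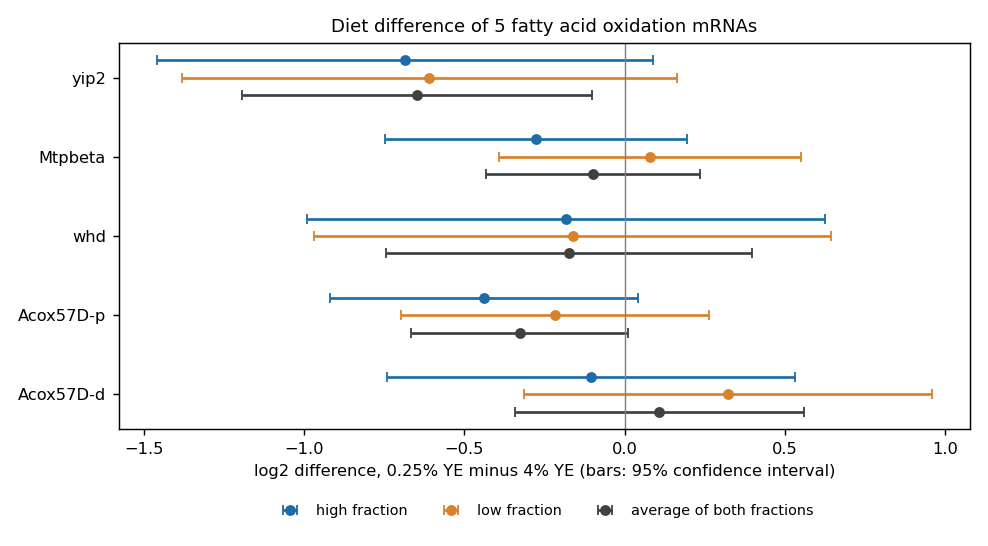
Log2 difference of level on 0.25% YE minus 4% YE (horizontal axis) for each gene in the high fraction, in the low fraction and averaged over both. Points are fitted differences and bars 95% confidence intervals from limma. The intervals include 0 except for the averaged difference of yip2, whose adjusted p of 0.22 did not pass.

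Beside these diet differences, summed markers of some tissues differed between diets, though few single markers were called. The summed intensity of the 7 fat body markers on the arrays was 16278 to 21671 in the high fraction on 0.25% YE, against 25950.2 to 28739.6 in the high fraction on 4% YE. In the low fraction it was 14743 to 19775 on 0.25% YE, against 25497 to 26559 on 4% YE. The sums of both diets did not overlap in either fraction. Of these markers 5 were tested, of which 1, the larval serum protein gene Lsp2, was called lower on 0.25% YE in each fraction (-6.38 in the high fraction, -6.61 in the low one). The other 4 were not called, at -0.83 (Obp99b), -0.18 (apolpp), 0.25 (Apoltp) and 0.28 (CG13315) in the high fraction, and Fbp1 and Fbp2 were above background on 0 arrays. The 3 gut markers summed to 11548 to 13365 on 0.25% YE, against 15362 to 16691 on 4% YE in the high fraction, and to 8434 to 10720.4 against 11876 to 12880.4 in the low fraction. These sums did not overlap either, with 0 of 3 called in a fraction and 2 of 3, LManV and Mal-A1, called lower in the average (2.9% of all probe sets). The 5 muscle markers, all above background on each array, summed to 8218 to 11099.6 in the high fraction on 0.25% YE, against 4639 to 6408 in the high fraction on 4% YE. Their low-fraction sums overlapped, at 5515 to 8889.6 on 0.25% YE and 5091 to 7041 on 4% YE, and 0 of 5 were called. Of 4 oenocyte markers tested, 3 were called toward the high fraction on each diet (9.66% of all probe sets on 0.25% YE and 16.3% on 4% YE). Of 5 accessory gland markers, 1 was called higher and 3 lower on 0.25% YE, and 1 and 4 on 4% YE. For 6 testis markers these counts were 1 and 3, and 2 and 2. Of all probe sets 11.8% and 17.9% were called lower on the 2 diets. The part of these marker differences in the members' values was not tested.

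Within a gene, yip2 and Acox57D-p had one order of group means. The high fraction on 4% YE came first, then the high fraction on 0.25% YE, the low fraction on 4% YE and the low fraction on 0.25% YE. For yip2 only the last 2 groups overlapped. For Acox57D-p these overlapped too, as did the middle pair, where the dimmest high-fraction array on 0.25% YE (357) lay under the brightest low-fraction array on 4% YE (362). Mtpbeta and Acox57D-d had the same first 2 groups, which overlapped each other, followed by the low fraction on 0.25% YE and that on 4% YE, which overlapped as well. For whd the 4 group means lay between 1173 and 1338 with SDs of 76.8 to 734, and all neighbours overlapped.

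Over the 12 arrays, which share their fractions and diets, 4 members ran together, and whd did so only without replicate 1. The log2 levels of yip2 correlated with those of Acox57D-p at 0.96 and of Mtpbeta at 0.95, and Mtpbeta with Acox57D-p at 0.94. Acox57D-d correlated with these 3 at 0.67 to 0.78. The correlations of whd with the other members lay between -0.13 and 0.17. Over the 8 arrays of replicates 2 and 3 they lay between 0.51 and 0.80, and those among the other 4 members between 0.70 and 0.99. Among 9490 other genes, the profile most like that of yip2 was CG10863 (Pearson r = 0.99) and then CG31674 (0.99). The nearest to Mtpbeta were pyd3 (0.99) and CG6067 (0.99), to Acox57D-p Tmlh (0.98) and Usp5 (0.98), and to Acox57D-d ArgRS (0.93) and retn (0.91). The profile most like that of whd was Fatp, a fatty acid transport protein (0.97), followed by CG32191 (0.96). These likenesses were taken over all 12 arrays. For whd the low-fraction replicate 1 arrays were the brightest (1862 on 0.25% YE and 2165 on 4% YE). Its likeness to other genes was not taken without replicate 1.

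The rest of the mitochondrial pathway was described from a list of 26 other genes, of which 20 were tested. On 0.25% YE, 8 were higher in the high fraction, 0 were lower and 12 were not called (median index 0.77, against 0.02 over all probe sets). On 4% YE, 11 were higher, 1 was lower and 8 were not called (median 0.91, against 0.02). Of all probe sets tested, 9.66% were called higher and 11.8% lower on 0.25% YE, and 16.3% and 17.9% on 4% YE. The very long chain acyl-CoA dehydrogenase gene Acadvl measured 1929, 2187 and 2304 in the high and 1160.2, 1036 and 1166 in the low fraction on 0.25% YE. On 4% YE it measured 2381, 1964 and 1961 in the high and 1019.7, 856 and 794 in the low fraction. Its index was 0.93 ± 0.16 on 0.25% YE (adjusted p = 0.0039) and 1.24 ± 0.16 on 4% YE (adjusted p = 0.00038).

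Further genes of that list were called on both diets. CRAT, carnitine acetyltransferase, had indices of 0.98 ± 0.22 and 1.38 ± 0.22 on 0.25% and 4% YE (adjusted p = 0.01 and 0.0008). Egm, an acyl-CoA dehydrogenase relative, had one of 1.03 ± 0.26 on 0.25% YE (adjusted p = 0.018). CG6638, the fly isovaleryl-CoA dehydrogenase of leucine breakdown, had one of 1.26 ± 0.23 on 4% YE (adjusted p = 0.0015). The gene of the list called lower was colt, the carrier that brings carnitine esters across the inner mitochondrial membrane. On 4% YE it measured 1565, 1324 and 1269 in the high and 2330.2, 1971 and 1918 in the low fraction, an index of -0.58 ± 0.17 (adjusted p = 0.019). CPT2, which takes the carnitine off again inside the mitochondrion, had an index of 1.01 ± 0.28 on 4% YE (adjusted p = 0.017) and was singled out after its values were seen.

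The counts of the mitochondrial list moved with single arrays. The 8 on 0.25% YE became 1 without high-fraction 0.25% YE replicate 2, 3 without high-fraction replicate 3 and 3 without low-fraction replicate 2 of that diet. They became 13 higher and 1 lower in the fit blocked by replicate number (34.9% of all probe sets called). Without the replicate 1 arrays they became 14 higher and 2 lower (57.7% of all probe sets called). On 4% YE the count higher was 6, 7 and 7 without high-fraction replicates 1, 2 and 3 and 7 and 5 without low-fraction replicates 1 and 3, and the call of colt was lost in 3 of these 5.

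Of 14 other peroxisomal list entries 7 were tested. On 0.25% YE 3 were higher in the high fraction and 4 were not called (median 0.84), and on 4% YE 4 were higher and 3 were not called (median 0.98). Over all probe sets 9.66% were called higher on 0.25% YE and 16.3% on 4% YE. ScpX, a thiolase of the sterol carrier protein type, measured 747, 1636 and 2048 in the high and 351, 413 and 489 in the low fraction on 0.25% YE. The values on 4% YE were 1357, 2099 and 1817 in the high and 361, 479.7 and 434 in the low fraction. No arrays of the fractions overlapped. Its index was 1.71 ± 0.33 on 0.25% YE (adjusted p = 0.0058) and 2.03 ± 0.33 on 4% YE (adjusted p = 0.00092), beside 1.83 and 1.90 for yip2. Mfe2, the peroxisomal multifunctional enzyme, had an index of 0.84 ± 0.25 on 0.25% YE (adjusted p = 0.034) though its arrays overlapped, and Acox3, another acyl-CoA oxidase, one of 0.84 ± 0.17 on 4% YE (adjusted p = 0.0032). Acat2, whose mammalian counterpart is cytosolic, had 0.86 ± 0.21 on 0.25% YE and 1.20 ± 0.21 on 4% YE (adjusted p = 0.014 and 0.0013). The count on 0.25% YE was 1 without high-fraction or low-fraction 0.25% YE replicate 2.

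Peroxisome biogenesis genes were mixed. Of 9 tested, 3 were higher in the high fraction and 6 were not called on 0.25% YE (median 0.57), and 3 were higher, 1 was lower and 5 were not called on 4% YE (median 0.30). The shares of all probe sets were 9.66% higher on 0.25% YE, and 16.3% higher and 17.9% lower on 4% YE. Pex16, which helps to place peroxisomal membrane proteins, had indices of 1.61 ± 0.32 and 1.60 ± 0.32 on 0.25% and 4% YE (adjusted p = 0.0068 and 0.003). Pex19, the chaperone of such proteins, had 0.69 ± 0.17 on 0.25% YE and Pex13, part of the import pore, 0.98 ± 0.19 on 4% YE (adjusted p = 0.018 and 0.0022). Pex10, a ubiquitin ligase of the importer, measured 136, 50.2 and 63.8 in the high and 283, 196 and 218 in the low fraction on 4% YE, an index of -1.58 ± 0.34 (adjusted p = 0.004). On 0.25% YE the count fell to 1 when replicate 2 of the low fraction, or 2 or 3 of the high fraction, was left out.

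Among fatty acid activation and binding genes, those called higher and those called lower differed in protein kind. Of 13 genes tested, 1 was higher in the high fraction, 3 were lower and 9 were not called on 0.25% YE (median 0.10), and 2 were higher, 5 lower and 6 not called on 4% YE (median -0.14). Among all probe sets 9.66% were called higher and 11.8% lower on 0.25% YE, and 16.3% and 17.9% on 4% YE. All genes called lower were acyl-CoA binding proteins, small carriers of activated fatty acids. Acbp1 measured 890.5, 503 and 596 in the high and 1198, 1204 and 1031 in the low fraction on 0.25% YE. On 4% YE it measured 379.9, 509 and 473 in the high and 1324, 1352 and 1423 in the low fraction. Its index was -0.83 ± 0.22 on 0.25% YE and -1.60 ± 0.22 on 4% YE (adjusted p = 0.023 and 0.00045). Acbp3 had -1.02 ± 0.29 and -1.57 ± 0.29 and Acbp5 -0.86 ± 0.20 and -1.24 ± 0.20 on 0.25% and 4% YE (adjusted p = 0.029, 0.0018, 0.012 and 0.00083). The genes called higher were acyl-CoA synthetases, CG6178 at 1.60 ± 0.24 on 0.25% YE and 1.66 ± 0.24 on 4% YE (adjusted p = 0.0023 and 0.00051), and pdgy at 0.90 ± 0.22 on 4% YE (adjusted p = 0.0089). Not every synthetase was called: Acsl had 0.25 ± 0.54 on 0.25% YE and 0.55 ± 0.54 on 4% YE (adjusted p = 0.77 and 0.47). The count lower on 0.25% YE was 1 when replicate 2 of the low fraction, or 2 or 3 of the high fraction, was left out, and 0 with the values as deposited.

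Of 10 lipolysis and regulator genes tested, 1 was higher in the high fraction on 0.25% YE (median 0.13) and 3 on 4% YE (median 0.38), and 0 were lower. Over all probe sets 9.66% were called higher on 0.25% YE and 16.3% on 4% YE. The count on 0.25% YE was thus near the share of all probe sets. The deacetylase gene Sirt1 had an index of 0.72 ± 0.23 on 0.25% YE (adjusted p = 0.042) and 1.13 ± 0.23 on 4% YE (adjusted p = 0.0031). The call on 0.25% YE was lost without replicate 2 or 3 of any of the 4 groups. The triglyceride lipase gene bmm had an index of 0.68 ± 0.18 on 4% YE (adjusted p = 0.013), with 1103, 1134 and 1261 in the high and 635, 791 and 766 in the low fraction. Lip4, a lipase gene, had an index of 0.98 ± 0.29 there (adjusted p = 0.022).

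**Figure D4:**
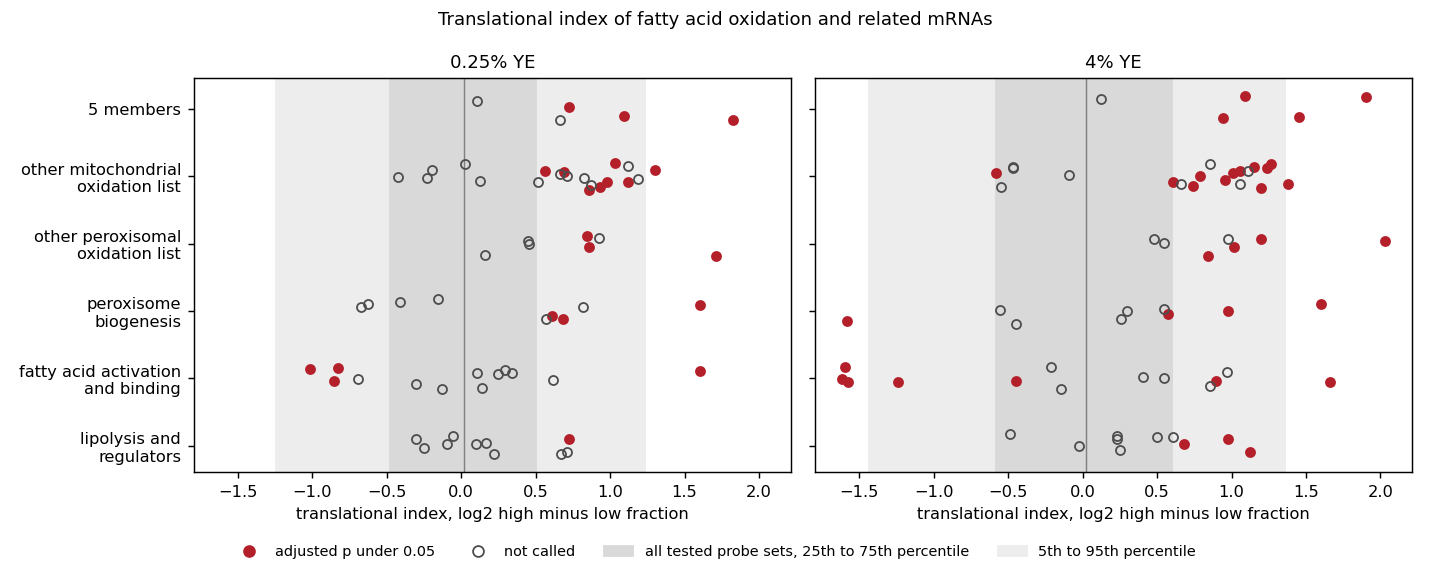
Translational index (log2 high minus low fraction, horizontal axes) of the 5 members and of each tested gene of 5 related lists on 0.25% YE (left) and 4% YE (right), filled where the adjusted p was under 0.05. Grey bands span the 25th to 75th and the 5th to 95th percentile of all 11262 probe sets, and the filled points at the left of the activation and binding row are acyl-CoA binding proteins, with Acbp1 at -0.83 and -1.60.

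Few genes of these lists were called between diets. In the mitochondrial list 1 of 20 genes was lower on 0.25% YE in each fraction and 2 were lower in the average (1.23%, 0.87% and 2.9% of all probe sets were called lower), and 0 were higher. The list's median difference was -0.40 in the high fraction, -0.38 in the low fraction and -0.38 in the average, against 0.02, 0.03 and 0.04 over all probe sets. In the average 17 of the 20 values lay below 0, most of them not called. The gene called in each fraction was CG9547, the fly glutaryl-CoA dehydrogenase of lysine breakdown. It measured 224, 549.9 and 473 on 0.25% YE, against 1627, 2252 and 1868 on 4% YE in the high fraction (-2.29 ± 0.40, adjusted p = 0.014). In the low fraction it measured 95.8, 181 and 280.6 on 0.25% YE, against 696, 1047 and 781 on 4% YE (-2.28 ± 0.40, adjusted p = 0.017). Leaving out replicate 2 or 3 of the high fraction on 4% YE ended the high-fraction call, and leaving out low-fraction replicate 2 of either diet or replicate 3 of 4% YE ended the low-fraction call. Had1 was called in the average at -1.79 ± 0.30 (adjusted p = 0.0049). It entered the list by its CG number, and its synonym CRYL1 is the name of a mammalian sugar acid dehydrogenase. Its place among fatty acid oxidation genes is therefore doubtful. CG9547 is then the sole gene of the list called between diets in the fit without the block, and it is itself an enzyme of lysine breakdown. In the fit blocked by replicate number the counts lower were 4, 2 and 5, where 2.34%, 1.8% and 4.64% of all probe sets were called lower. Beside CG9547 and Had1, that fit called Acat1 and CG6638 in the high fraction (adjusted p = 0.0425 and 0.0336). In the average it called Acat1 (-0.77, adjusted p = 0.0048), CG6638 (-0.53, 0.019) and Echs1 (-0.75, 0.049). Without the block their adjusted p in the average was 0.104, 0.0934 and 0.0799.

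In the activation and binding list 2 of 13 genes were called lower on 0.25% YE in the average (2.9% of all probe sets). In either fraction 0 were. The blocked fit also called hll in the high fraction (adjusted p = 0.043) and Acbp3 in the low fraction (adjusted p = 0.047). Of the 2 genes called in the average without the block, Acbp3 was one, at -0.89 ± 0.21 (adjusted p = 0.031). The other was hll, an acyl-CoA synthetase gene not well above background on any array of 0.25% YE. Its averaged difference was called at an adjusted p of 0.014, and those within a fraction were not (0.071 in the high fraction, 0.28 in the low one). Taking the control level of each array as its floor, hll was at least 2.88-fold lower on 0.25% YE in the high fraction. Its means there were 7.57 on 0.25% YE and 56.1 on 4% YE. In the low fraction it was at least 1.33-fold lower, with means of 7.64 and 27.6. The low-fraction arrays on 4% YE measured 22.7, 36.7 and 23.4, against control levels of 19.6, 16.7 and 21.9. These folds are lower bounds set by the floor, carry no error and were not tested. The count was 0 without high-fraction 4% YE replicate 1, 2 or 3 and 1 without any of 7 other arrays. The other lists had 0 genes called between diets in limma without the block, in the high fraction, the low fraction or the average. The blocked fit called 1 of 10 lipolysis and regulator genes, Akh, the adipokinetic hormone that mobilises stored fat. Akh measured 202, 295 and 320.1 on 0.25% YE, against 115, 204 and 151 on 4% YE in the high fraction. In the low fraction it measured 181, 349 and 367 on 0.25% YE, against 142, 246 and 279.7 on 4% YE. In that fit it was higher on 0.25% YE at 0.80 ± 0.18 in the high fraction (adjusted p = 0.036) and 0.61 ± 0.13 in the average (adjusted p = 0.017), where 1.89% and 3.19% of all probe sets were called higher. Without the block the adjusted p was 0.33 and 0.24, and Akh was higher on 0.25% YE in 3 of 3 replicate numbers in each fraction.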

How the data were processed

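RNA from 2 polysome fractions on 2 diets was hybridised to 12 one-colour Affymetrix fly arrays. The authors deposited 1 linear intensity per probe set and array, with 9.45% to 13.7% of values below 0. How they summarised and scaled these is not given in the sources used here. The number of arrays limits the precision, and the number of probes behind a value is not used here.

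Arrays were quantile normalized, floored at 0 and put on the log2(value + 1) scale. This scale can understate the change of dim probe sets, and near background it can also enlarge their noise. The second whd probe set, at background throughout, had an index of -3.27 in replicate 2 on 4% YE. The dimmest 40% by mean over all arrays were left out. The 4 group means were fitted together in limma 3.58.1 (R 4.3.3) with an intensity trend and Benjamini-Hochberg adjustment, at 8 residual degrees of freedom. Adjusted p values printed in the text come from this limma fit unless another setting is named. A probe set counted as above background on an array if it passed the 95th percentile of 100 control probe sets. Probe sets were named by platform annotation, with symbols updated through the gene table: 13647 had 1 symbol, 402 several and 4720 none. The brightest probe set stood for a gene. The text names all members, up to 3 genes of smallest p per list, contrast and direction, and the 2 genes most like each member. The members and lists were chosen with earlier results of these data known. The genes of each list that had no probe set named for them are not analysed here. The planned mean of 5 mitochondrial members was taken over the 3 found.

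Replicates are labelled biological. Departures from the group means correlated at 0.166 to 0.669 between same-numbered arrays in all 12 pairs that differ in diet or in fraction alone. These are the pairs that are compared. In the 6 pairs that differ in both, the correlation was 0.073 to 0.462, and 1 of these lay under 0.1. The numbers were therefore taken to pair the arrays in the by-number values and in the blocked fit. The main limma fit had no replicate term, so its p values are not paired. The titles give replicate 1 of 4% YE no number, and what a number stands for is not given in the sources used here. Alternatives were other scalings, a pseudocount of 16, no filter, the replicate block, leaving out each array, and, chosen after seeing the data, leaving out the 4 replicate 1 arrays. The fit was also run on simulated data with independent noise on each array. Those data lack the correlation of same-numbered arrays, so that run cannot speak to it.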

Additional observations from a re-analysis of the deposited data

How the results depend on the processing

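Of 570 values of the 30 member results under 19 alternatives, 524 kept their direction and their side of the threshold, 10 lost and 5 gained a call and 31 changed sign. The cause of these changes was not tested. In the fit blocked by replicate number (replicate block) the averaged diet difference of yip2 was called (adjusted p = 0.048, range over alternatives 0.022 to 0.46), which made 1 member called there, and the block changed no other member call. Without the replicate 1 arrays 1 member was called between diets in the high fraction and 1 in the average. The member counts were 2 to 3 on 0.25% YE and 3 to 4 on 4% YE when single arrays were left out, and 0 to 0 in the other contrasts. Dim probe sets near background, such as the second one of whd, give no measured difference.

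The probe sets called for the index on 0.25% YE were 2412, against 1584 with values as deposited, 3932 with the block and 6500 without the replicate 1 arrays (753 to 3581 with single arrays left out, the fewest without high-fraction 0.25% YE replicate 2). On 4% YE they were 3846, against 2396 as deposited and 6971 without the replicate 1 arrays (2617 to 4760). For the index change they were 1, against 0 at a pseudocount of 16, 4 without a filter and 18 without the replicate 1 arrays (0 to 1). For the diet difference they were 198 in the high fraction, against 40 as deposited, 476 with the block and 2509 without the replicate 1 arrays (61 to 507). In the low fraction they were 109, against 42, 254 and 895 under those settings (45 to 148), and in the average 465, against 158, 881 and 2515 (260 to 725).

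With values as deposited 92.2% of calls on 0.25% YE were toward the high fraction, and 56.3% with median scaling, against 45.1%. The median index of all probe sets was 0.41 and 0.12 under these settings, and that of Acox57D-p was 1.22 as deposited, against 0.72. On 4% YE the share was 77.8% as deposited (median of all 0.32), against 47.6%. Between diets the share called higher in the high fraction was 12.5% as deposited (median of all 0.21) and 15.1% with 75th percentile scaling, against 30.3%. In the average it was 18.6% with median and 19.3% with 75th percentile scaling, against 29.7%.

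Peroxisomal minus mitochondrial members in the low fraction between diets was 0.28, against 0.43 with median scaling, 0.43 with 75th percentile scaling and 0.43 as deposited (0.26 to 0.31 with single arrays left out). For the index change it was -0.17, against 0.0050 without the replicate 1 arrays (-0.30 to -0.03). Leaving out single arrays gave -0.46 to -0.20 on 0.25% YE, -0.28 to -0.02 on 4% YE, -0.022 to 0.25 for diet in the high fraction and 0.13 to 0.26 in the average.

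Signs turned as follows. The index change of whd was 0.11 with median scaling, 0.037 with 75th percentile scaling and 0.15 as deposited, and that of yip2 was 0.034 as deposited. The high-fraction diet difference of Acox57D-d was 0.11 as deposited and 0.18 without the replicate 1 arrays. The low-fraction difference of Mtpbeta was -0.058 with median and -0.026 with 75th percentile scaling, and its average 0.075 without the replicate 1 arrays. With single arrays left out, whd ran from -0.13 to 0.49 on 0.25% YE and from -0.21 to 0.54 on 4% YE. Index changes ran from -0.53 to 0.26 (yip2), -0.43 to 0.37 (whd) and -0.34 to 0.00033 (Acox57D-p). Diet differences ran from -0.36 to 0.15 (Acox57D-d, high fraction), -0.073 to 0.27 (Mtpbeta, low), -0.55 to 0.25 (whd, low), -0.37 to 0.035 (whd, average) and -0.018 to 0.24 (Acox57D-d, average).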
